A study of Mus musculus with 20 samples.

Results

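Transcripts of 8 receptor genes were followed in cultured mouse macrophages: the scavenger receptors Cd36, Scarb1, Scarb2, Msr1 and Marco, the mannose receptor Mrc1, and the formyl peptide receptors Fpr1 and Fpr2. The genes were taken by symbol from a table of 22165 genes, and all 8 were among the 10663 that passed the filter on low counts. The cells were bone marrow-derived macrophages of wild-type (WT) C57BL/6 mice, grown with macrophage colony-stimulating factor. Ctrl cells received no pretreatment. DI cells were given dimethyl itaconate, written Demethyl Itaconate in the sample labels, at 250 µM for 12 h before the stimulus. Both arms then received LPS (lipopolysaccharide) together with IFNg, the cytokine interferon gamma, and were sampled at 0, 1, 2, 4 and 6 h, where 0 h is before the stimulus. This gave 10 groups of 2 libraries, 20 in all, in which messenger RNA of cell lysates was read from the 3' ends of transcripts.

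Scavenger receptors take up modified lipoproteins, lipids, microbes and dying cells. CD36, SR-B1 (Scarb1) and LIMP-2 (Scarb2) form 1 protein family. CD36 takes up oxidised lipoproteins and long-chain fatty acids, SR-B1 exchanges cholesterol with high-density lipoprotein, and LIMP-2 sits in the lysosome membrane and carries glucocerebrosidase there. Class A receptors have a collagen-like stalk: Msr1 binds acetylated lipoprotein and bacterial products, and Marco binds bacteria and particles. Mrc1 (CD206) is a C-type lectin that clears mannose-bearing glycoproteins and is widely used as a marker of alternatively activated macrophages. FPR1 and FPR2 are G protein-coupled receptors that guide phagocytes towards formylated peptides from bacteria and mitochondria, and FPR2 also binds endogenous ligands such as annexin A1 and serum amyloid A. Itaconate is made by activated macrophages from a citric acid cycle intermediate. Dimethyl itaconate is an ester that enters cells and reacts with thiols.

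Total counts were 3655977 to 8938983 in Ctrl libraries and 3982073 to 6725447 in DI libraries. DI libraries held more genes at 0 (11143 to 12356, against 9301 to 10859 in Ctrl) and fewer genes with 1 to 3 reads (333 to 674, against 1370 to 1741), and the part of this difference in the results below was not tested. All 9 macrophage markers checked, among them Adgre1 and Csf1r, passed the filter, and their summed level was 3437 to 6081 CPM (the count scaled to library size) in Ctrl and 2645 to 4981 CPM in DI. Markers of neutrophils and their precursors, 12 of 13 of which passed the filter, summed to 455 to 840 CPM in Ctrl and 443 to 890 CPM in DI. In any library S100a9 had at most 3409 reads, Mmp8 1924 and S100a8 1738, against 25 for Elane, 22 for Mpo and 13 for Ly6g. This sum can therefore follow a few genes and need not follow the list. Mmp8 had 118 to 670 reads in Ctrl and 358 to 1924 in DI, and Csf3r 224 to 652 and 93 to 333. All 4 fibroblast markers passed, and their sum was 38.1 to 68.0 CPM in Ctrl and 5.30 to 39.5 CPM in DI. Of 6 dendritic cell markers 3 passed, with a sum of 12.8 to 41.7 CPM in Ctrl and 8.82 to 22.7 CPM in DI, and Cd209a had 0 reads in all 20 libraries. B cell markers, 2 of 4 of which passed, summed to at most 5.02 CPM. No T cell, mast cell or erythroid marker passed, and their sums were at most 1.12, 2.04 and 0.895 CPM. The part of these other cell types in the results was not tested. In lysates of many cells, fewer cells of a type and less RNA per cell cannot be told apart.

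**Figure D1:**
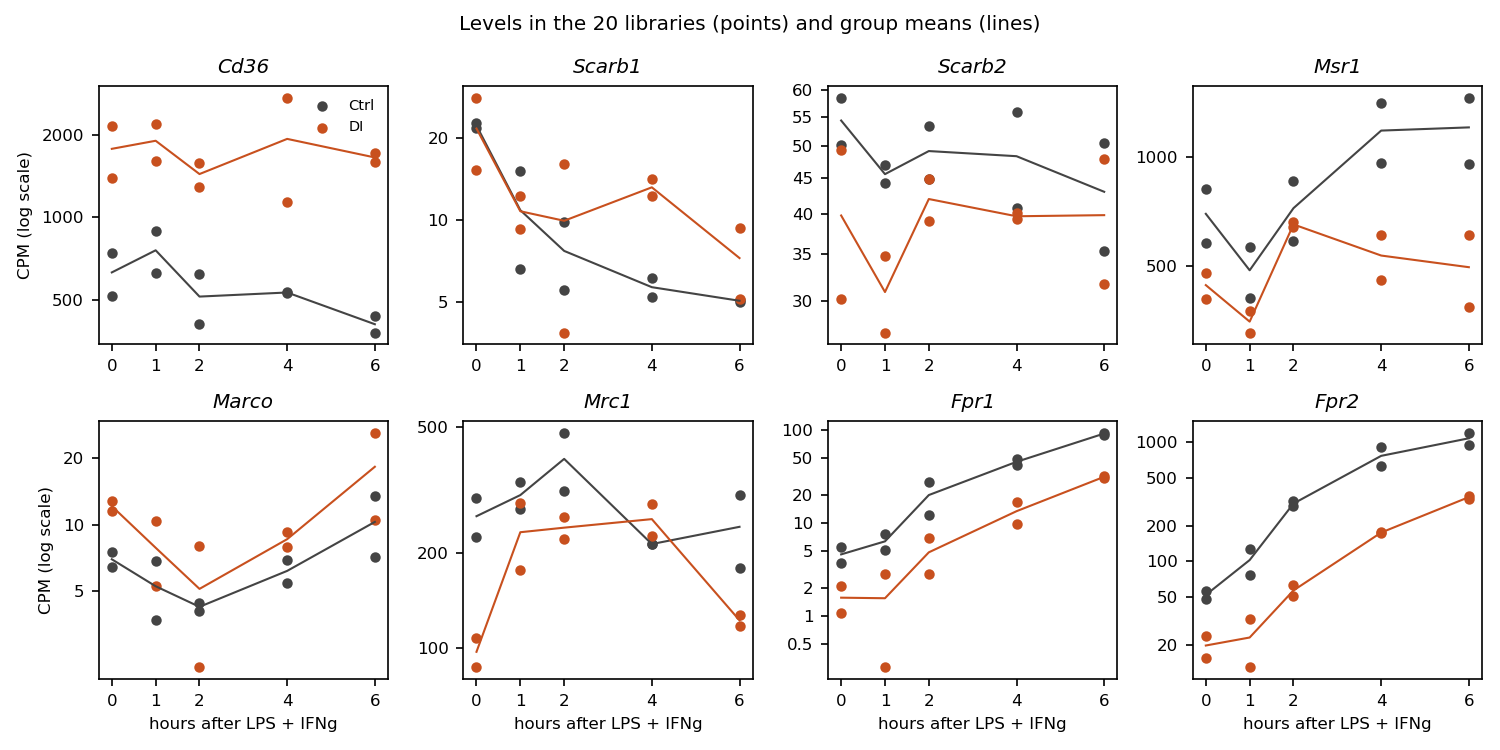
Level of each receptor gene in CPM on a log axis against hours after LPS and IFNg, in Ctrl (grey) and DI (orange); points are single libraries, lines join group means, and each panel has its own range. All DI points of Cd36 lie above all Ctrl points, and Fpr1 and Fpr2 climb in both arms with DI below Ctrl at every time.

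DI cells held more Cd36 RNA and less Fpr2 RNA than Ctrl cells at all 5 times, and less Fpr1 RNA from 2 h after the stimulus on. Msr1 was lower in DI late in the response, Mrc1 was lower at 0 h and 6 h, and no difference was called for Scarb1, Scarb2 or Marco. A gene was called at an adjusted p under 0.05 from edgeR's quasi-likelihood test with Benjamini-Hochberg adjustment over all genes tested. At 0 h, 3 of the 8 genes were called, where 3.60% of all genes tested were. The numbers called were 2 of 8 at 1 h against 4.89% of all genes, 3 of 8 at 2 h against 6.24%, 4 of 8 at 4 h against 9.43%, and 5 of 8 at 6 h against 14.2%. Cd36 gave the 5 calls in the higher direction, 1 of 8 at each time, where 1.43%, 1.86%, 2.27%, 3.43% and 5.24% of all genes were called higher at 0, 1, 2, 4 and 6 h. The 12 lower calls were 2, 1, 2, 3 and 4 of 8, where 2.17%, 3.03%, 3.97%, 6.00% and 8.95% of all genes were called lower. The labels do not say that the 2 libraries of a group came from separate mice or cultures, so p-values measure the spread between these libraries, which may be technical.

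**Figure D2:**
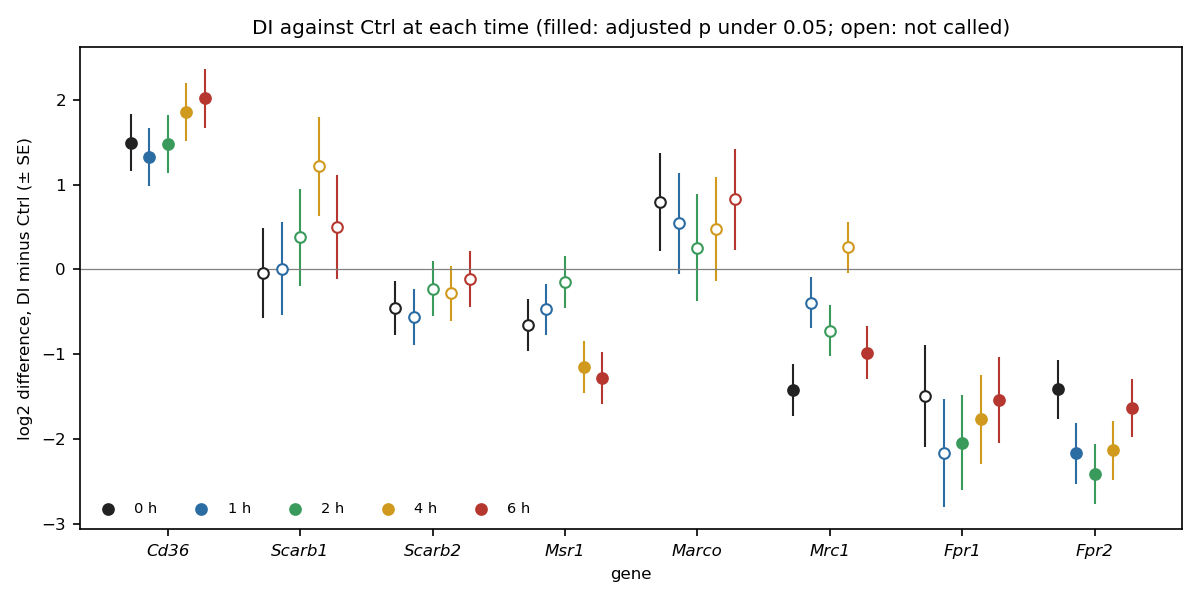
Log2 difference between DI and Ctrl for the 8 genes at each of 5 times, with bars of 1 standard error; filled points were called at an adjusted p under 0.05 and open points were not. Cd36 lies between 1.33 and 2.02 and Fpr2 between -1.41 and -2.42, both called at every time.

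The formyl peptide receptor genes are neighbours. In GRCm38 (GENCODE M21), Fpr1 (ENSMUSG00000045551) lies on the minus strand at chr17:17876471-17883940 and Fpr2 (ENSMUSG00000052270) on the plus strand at chr17:17887824-17893952. Their starts are 3884 bases apart, face away from each other, and have no annotated gene between them. Chromosome 17 carries 8 annotated Fpr genes, and Fpr2 overlaps 1 of them, Fpr3, on the same strand. Fpr3 had 16 reads over all 20 libraries, 12 of them in DI 4 h replicate 2, against 24488 for Fpr2. How reads shared by both genes were counted is not given, and a loss of Fpr2 reads to the overlap was not tested. The promoters of Fpr1 and Fpr2 are shown because the levels of both genes move together, and that of Cd36 because it differs between the arms in the other direction. Each is the 250 bases before the start in the RefSeq annotation of GRCm38.p6, on the gene's own strand: chr17:17883940-17884189 (minus strand) for Fpr1, chr17:17887574-17887823 (plus strand) for Fpr2 and chr5:17835897-17836146 (minus strand, at a start inside the annotated span of the gene) for Cd36. Capitals mark matches to the motifs searched.
Fpr1: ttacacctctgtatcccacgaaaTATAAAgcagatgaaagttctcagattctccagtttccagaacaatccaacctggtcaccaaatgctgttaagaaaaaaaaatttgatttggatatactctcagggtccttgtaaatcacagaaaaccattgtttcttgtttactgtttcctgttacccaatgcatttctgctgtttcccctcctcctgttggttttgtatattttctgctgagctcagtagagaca
Fpr2: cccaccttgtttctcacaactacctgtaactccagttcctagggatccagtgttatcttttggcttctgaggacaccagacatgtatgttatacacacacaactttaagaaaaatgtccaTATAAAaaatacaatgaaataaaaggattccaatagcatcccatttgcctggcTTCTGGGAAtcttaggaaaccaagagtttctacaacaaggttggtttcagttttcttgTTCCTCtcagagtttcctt
Cd36: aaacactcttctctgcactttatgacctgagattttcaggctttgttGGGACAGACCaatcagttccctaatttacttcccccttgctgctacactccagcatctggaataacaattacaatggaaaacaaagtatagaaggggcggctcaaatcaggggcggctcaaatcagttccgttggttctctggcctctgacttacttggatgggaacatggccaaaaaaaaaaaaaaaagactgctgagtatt
In the Fpr1 promoter the capitals mark the letters of the TATA box motif, TATAAA, and their first base lies 227 bases before the start. The Fpr2 promoter holds TATAAA at 130 bases, TTCTGGGAA at 77 bases, which has the letters of a GAS element (TTC and GAA, 3 bases between, bound by STAT factors), and TTCCTC at 19 bases, which is GAGGAA, a PU.1 core, on the other strand. The Cd36 promoter holds GGGACAGACC at 203 bases, a match to the κB motif searched, GGGA and CC with any 4 bases between them. Among 32851 promoters of the same length, searched on both strands, TATAAA was present in 12.37%, the GAS letters in 7.02%, GAGGAA in 23.25% and the κB letters in 17.63%. The 5 other motifs searched were the antioxidant response element core (TGAC and GC, 3 bases between, in 10.16% of promoters), the interferon-stimulated response element (GAAA and GAAA, 2 bases between, 2.977%), AP-1 (TGANTCA, 6.749%), C/EBP (TTGC and AA, 2 bases between, 9.564%) and a repeat of AGGTCA with 1 base between, bound by PPAR and RXR (0.03348%). None of these 5 was in the windows shown. A match is a description of letters, not a site shown to be bound.

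Fpr2 RNA was lower in DI than in Ctrl at every time and rose after the stimulus in both arms. In Ctrl, replicates 1 and 2 held 48.1 and 56.9 CPM at 0 h, 77.2 and 128 at 1 h, 322 and 289 at 2 h, 630 and 903 at 4 h, and 950 and 1202 at 6 h. In DI they held 23.9 and 15.7 CPM at 0 h, 33.2 and 13.0 at 1 h, 63.1 and 51.3 at 2 h, 175 and 174 at 4 h, and 336 and 356 at 6 h. Both DI libraries were below both Ctrl libraries at each of the 5 times. In time order, the 5 log2 differences between DI and Ctrl were -1.41 ± 0.35 (SE), -2.17 ± 0.36, -2.42 ± 0.36, -2.13 ± 0.35 and -1.64 ± 0.34, with edgeR's adjusted p at 0.0197, 2.90e-04, 7.51e-05, 1.81e-04 and 0.00162. The gap was widest at 2 h, where the level in DI was 5.34-fold lower. Averaged over the 5 times, a contrast added after the values were seen, Fpr2 was 3.88-fold lower in DI (log2 difference -1.95 ± 0.16, adjusted p = 5.25e-10). At 0 h the call was lost on leaving out Ctrl 0 h replicate 1 (adjusted p = 0.0618) or replicate 2 (0.149) or DI 0 h replicate 2 (0.196), and in a model of the groups compared alone (0.133). The calls at 1, 2, 4 and 6 h held in every alternative run.

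Fpr1 showed the same order of arms at lower counts. Ctrl replicates 1 and 2 held 5.44 and 3.73 CPM at 0 h, 5.10 and 7.56 at 1 h, 12.3 and 27.6 at 2 h, 41.7 and 49.1 at 4 h, and 93.8 and 89.4 at 6 h. DI replicates held 1.06 and 2.07 CPM at 0 h, 2.81 and 0.279 at 1 h, 6.81 and 2.84 at 2 h, 9.76 and 17 at 4 h, and 30.4 and 32.3 at 6 h. At each time both DI libraries were below both Ctrl libraries, and DI 1 h replicate 2 had 2 reads, under the floor of 3 counts used for detection. Fpr1 was called lower in DI at 2 h (log2 difference -2.05 ± 0.56, adjusted p = 0.0284), 4 h (-1.77 ± 0.53, 0.0331) and 6 h (-1.55 ± 0.51, 0.0416). It was not called at 0 h (-1.49 ± 0.60, adjusted p = 0.225) or 1 h (-2.17 ± 0.64, 0.0504). Averaged over the 5 times it was 3.49-fold lower in DI (-1.80 ± 0.25, adjusted p = 5.14e-06). These calls rest on few libraries: those at 4 h and 6 h were lost when any 1 of the 4 libraries compared was left out (adjusted p 0.0666 to 0.174 and 0.133 to 0.163), and that at 2 h without Ctrl 2 h replicate 2 (-1.33, 0.351) or DI 2 h replicate 2 (-1.56, 0.266), with limma-voom (-2.11, 0.0589) and in a model of the groups compared alone (-2.04, 0.105). At 1 h the difference was called by the DESeq2 Wald test (adjusted p = 0.00929), without a filter on low counts (0.00314), with DESeq2 size factors (0.0424) and with scaling on abundant genes (0.0392). With DI 1 h replicate 1 left out, the difference at 1 h was -4.42 (adjusted p = 0.00427), measured on the library with 2 reads.

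Both formyl peptide receptor genes rose after LPS and IFNg in both arms. At 6 h Fpr2 had risen 20.5-fold in Ctrl (log2 4.36 ± 0.38, adjusted p = 2.83e-09) and 17.6-fold in DI (4.14 ± 0.38, 1.09e-08). Fpr1 had risen 19.8-fold in Ctrl (4.31 ± 0.57, 2.09e-06) and 19.1-fold in DI (4.25 ± 0.61, 1.21e-05). The difference between the DI and Ctrl responses at 6 h was -0.22 for Fpr2 (95% interval -1.22 to 0.77) and -0.05 for Fpr1 (-2.12 to 2.01). These intervals leave room for responses that differ by more than 2-fold, so equal responses are not shown. That of Fpr1 is inexact, because the standard error was derived from a difference close to none.
The rise was called from 2 h on in Ctrl for both genes, at 2.54 for Fpr2 and 2.13 for Fpr1 on the log2 scale. In DI it was called from 2 h on for Fpr2 (1.54 ± 0.36, adjusted p = 0.00426) and from 4 h on for Fpr1, which at 2 h was at 1.57 ± 0.64 (0.125, and 0.0476 without a filter on low counts). Left out singly, Ctrl 0 h replicate 2 (adjusted p = 0.122) and Ctrl 2 h replicate 2 (0.232) each ended the 2 h call of Fpr1 in Ctrl, and DI 0 h replicate 2 (0.0795) that of Fpr2 in DI. For Fpr2 the response difference at 2 h was -1.0 ± 0.49 (adjusted p = 0.658), not called. Ranked by mean level, the groups of Fpr2 ran from Ctrl 6 h (1076 ± 178 CPM, SD, n = 2) through Ctrl 4 h (767 ± 193), DI 6 h (346 ± 13.6) and Ctrl 2 h (306 ± 23.7) to DI 4 h (175 ± 0.712), and no neighbours among these 5 overlapped. DI 6 h and Ctrl 2 h were compared after their values were seen: the log2 difference was 0.18 ± 0.33 for Fpr2 (95% interval -0.51 to 0.87) and 0.64 ± 0.51 for Fpr1 (-0.41 to 1.68), neither called. In this contrast 3 of the 8 genes were called, Cd36, Marco and Mrc1, where 17.9% of all genes tested were. The summed neutrophil markers were 751 to 840 CPM in Ctrl at 0 h and 464 to 473 CPM at 6 h, and 868 to 890 and 536 to 684 CPM in DI. The summed dendritic cell markers were 15.0 to 16.4 CPM in Ctrl at 0 h and 35.8 to 41.7 CPM at 6 h, and 14.4 to 15.3 and 13.6 to 20.7 CPM in DI. In any Ctrl library Ccr7 had at most 153 reads and Itgax 65, against 22 for Xcr1, 12 for Flt3, 6 for Zbtb46 and 0 for Cd209a. The sum can therefore follow 1 or 2 genes and need not follow the list. These sums were scaled to total counts alone, without the TMM factors that also scale the levels of the 8 genes. In Ctrl those factors were 1.40 and 1.38 at 0 h and 0.765 and 0.808 at 6 h, and a lower factor gives a higher level. A fall of the neutrophil sum is therefore not shown on the scale of Fpr1 and Fpr2. The dendritic cell sum in Ctrl was higher at 6 h, as Fpr1 and Fpr2 were. The part of either cell type in the results was not tested.

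**Figure D3:**
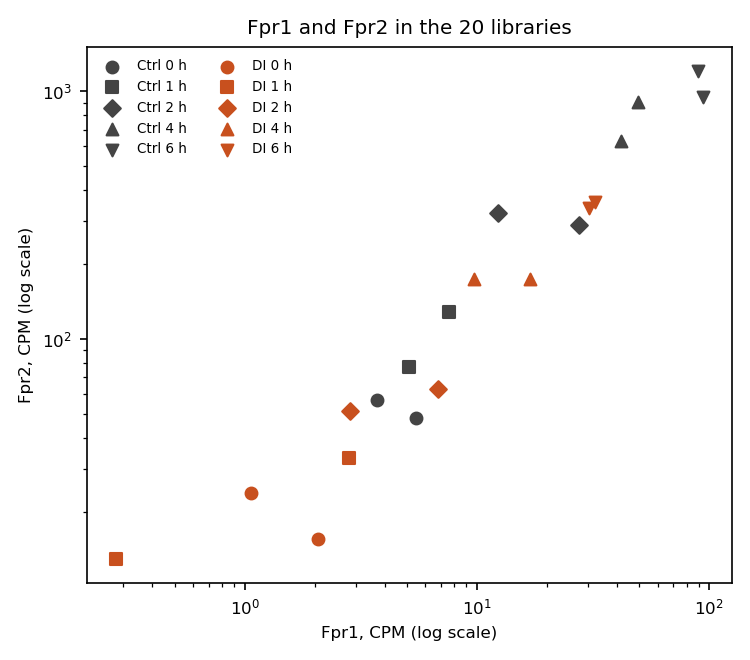
Level of Fpr2 against level of Fpr1 in the 20 libraries, both in CPM on log axes, with arms by colour and times by symbol. The libraries lie along 1 line from DI 1 h replicate 2 at the lower left to Ctrl 6 h at the upper right, with DI 6 h beside Ctrl 2 h.

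The levels of Fpr1 and Fpr2 followed each other, with a Pearson correlation of log2 CPM of 0.992 over the 10 group means and 0.970 over the 20 libraries. These points share their arms, times and library sizes, so the value is a description. Among 5028 genes that averaged 20 CPM or more, Fpr2 was the gene most like Fpr1, followed by Aoah (0.984), which encodes an enzyme that inactivates LPS, and Ube2l6 (0.983), an ISG15-conjugating enzyme. For Fpr2 they were Fpr1, Arl5c (0.990) and Aoah (0.987).

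Calls among the other chemoattractant receptors were mostly in the lower direction in DI. Of 17 listed, 10 were tested. In DI against Ctrl 3 were lower at 0 h, 2 each at 1, 2, 4 and 6 h, and 1 was higher at 6 h, with list medians of -0.72, -0.40, -0.32, 0.03 and 0.79 on the log2 scale against -0.05, 0.00, -0.03, -0.06 and -0.03 over all genes tested. Of all genes, 2.17%, 3.03%, 3.97%, 6.00% and 8.95% were called lower at these times, and 5.24% higher at 6 h. Ccr2, the receptor that draws monocytes to CCL2, was lower in DI at all 5 times, from 423 ± 8.35 CPM (SD, n = 2) in Ctrl to 95.5 ± 18.8 in DI at 0 h and from 264 ± 9.31 to 38.5 ± 6.80 at 6 h. C5ar1, the receptor of complement fragment C5a, was higher in DI at 6 h (log2 difference 0.93 ± 0.26, adjusted p = 0.0163) and fell after the stimulus in Ctrl (-1.29 ± 0.26 at 6 h, 4.72e-04), the opposite direction to Fpr1 and Fpr2. At 6 h in Ctrl, 5 of the 10 had fallen after the stimulus and 1 had risen, where 11.3% and 15.2% of all genes were called lower and higher. Cxcr4, the CXCL12 receptor, was among those that fell (10.6 to 0.716 CPM).
Among 9 genes for receptor ligands and resolution mediators, 6 were tested. In DI against Ctrl none was called at 0 h or 1 h, 1 was higher and 1 lower at 2 h, 3 were lower at 4 h, and 1 was higher and 2 lower at 6 h. Of all genes tested, 3.60%, 4.89%, 6.24%, 9.43% and 14.2% were called in either direction at the 5 times. Saa3, a serum amyloid A made by macrophages, rose from 38.1 ± 4.82 to 785 ± 64.0 CPM in Ctrl by 6 h and was at 48.9 ± 21.5 CPM in DI at that time (DI against Ctrl -4.00 ± 0.41, adjusted p = 2.38e-07). Anxa1, the gene of annexin A1, was lower in DI at 4 h (-0.88 ± 0.27, 0.0409) and 6 h (-0.82 ± 0.27, 0.0435). Lgals3, the gene of galectin-3, was higher in DI at 2 h (1.14 ± 0.31, 0.0268) and 6 h (1.69 ± 0.31, 4.93e-04). App was not called at any time between the arms and rose by 6 h in both.

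Cd36 (ENSMUSG00000002944, chr5:17781690-17888801, minus strand, GRCm38) was the only 1 of the 8 genes called higher in DI at matched times. Ctrl replicates 1 and 2 held 740 and 517 CPM at 0 h, 626 and 887 at 1 h, 408 and 618 at 2 h, 535 and 527 at 4 h, and 434 and 379 at 6 h. DI replicates held 1393 and 2157 CPM at 0 h, 1604 and 2196 at 1 h, 1580 and 1293 at 2 h, 2727 and 1133 at 4 h, and 1584 and 1719 at 6 h. The lowest of the 10 DI libraries (1133 CPM) was above the highest of the 10 Ctrl libraries (887 CPM). From 0 h to 6 h the log2 differences were 1.5 ± 0.34, 1.33 ± 0.34, 1.48 ± 0.34, 1.86 ± 0.34 and 2.02 ± 0.35 (adjusted p 0.00959, 0.0198, 0.00781, 7.12e-04 and 2.08e-04). Averaged over the 5 times Cd36 was 3.11-fold higher in DI (1.64 ± 0.15, adjusted p = 7.14e-09), at or above 98.2% of the genes tested. The difference was present at 0 h, before any LPS or IFNg. The stimulus itself moved Cd36 in neither arm past the threshold. The largest of these 8 differences was at 6 h in Ctrl, -0.63 ± 0.34 (adjusted p = 0.183), and it was called (-0.94, 0.0314) when libraries were scaled on abundant genes. The calls of Cd36 in DI at 4 h and 6 h held in every alternative, and those at the earlier times were lost on leaving out Ctrl 0 h replicate 2 (1.26, 0.199), DI 0 h replicate 2 (1.15, 0.122), Ctrl 1 h replicate 1 (1.10, 0.271), Ctrl 1 h replicate 2 (1.60, 0.0545), DI 1 h replicate 2 (1.08, 0.210) or Ctrl 2 h replicate 1 (1.22, 0.154), and at 0 h in a model of the groups compared alone (1.54, 0.0938).

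The gene whose group means were most like those of Cd36 was Gclc, with a Pearson correlation of 0.988 over 10 groups that share arms and times, followed by Cdkn1c (0.973) and Rnf128 (0.973). Gclc encodes the catalytic subunit of the enzyme that limits glutathione synthesis and is a known target of the transcription factor NRF2. Of 10 NRF2 targets, all tested, 10 were higher in DI at 0, 1, 4 and 6 h and 9 at 2 h, with list medians of 2.95 to 4.03 on the log2 scale. Over all genes tested, 1.43%, 1.86%, 2.27%, 3.43% and 5.24% were called higher at the 5 times, with medians of -0.06 to 0.00. The part of NRF2 in the level of Cd36 was not tested. Gclc itself was at 56.6 ± 7.59 CPM in Ctrl and 614 ± 33.9 in DI at 0 h (3.44 ± 0.33, adjusted p = 1.76e-07).

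Of the genes that handle the lipid taken up by CD36 and SR-B1, 6 were higher in DI at 6 h. Of 18 listed, 17 were tested, and in DI 1 was higher at 0 h, 1 lower at 1 h, 2 higher at 2 h, 5 higher at 4 h and 6 higher at 6 h. Over all genes tested, 3.60%, 4.89%, 6.24%, 9.43% and 14.2% were called at these times, so the share of all genes called also grew. The list median was 0.03, 0.07, 0.36, 0.84 and 0.94 on the log2 scale, against -0.05, 0.00, -0.03, -0.06 and -0.03 over all genes. Plin2, a coat protein of lipid droplets, was at 1064 ± 277 CPM in DI and 330 ± 36.6 in Ctrl at 6 h (log2 difference 1.69 ± 0.26, adjusted p = 6.97e-05). Lipa, the acid lipase of the lysosome, was at 2575 ± 144 CPM in DI and 945 ± 25.0 in Ctrl (1.45 ± 0.23, 1.05e-04). Acsl1, which activates long-chain fatty acids, rose by 6 h in both arms, to 881 ± 25.4 CPM in Ctrl and 2415 ± 328 in DI. Rxra, a nuclear receptor that pairs with PPAR and LXR, was called higher in DI at 6 h (2.67 ± 0.70, 0.0108), at low levels of 6.42 ± 4.14 and 0.956 ± 0.339 CPM. Within Ctrl, 3 of the 17 had risen and 8 had fallen by 6 h, Plin2 and Lipa among those that fell, where 15.2% and 11.3% of all genes were called higher and lower. In DI 3 had risen and 2 had fallen, where 20.2% of all genes were called in either direction. The difference between the DI and Ctrl responses at 6 h was called for 1 of the 17, Acsl1 (1.80 ± 0.41, adjusted p = 0.0233), and not for Plin2 or Lipa, where 1.55% of all genes were called.

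Scarb1 (ENSMUSG00000037936, chr5:125277087-125341094, minus strand) fell after the stimulus in Ctrl. Ctrl replicates held 22.6 and 21.8 CPM at 0 h, 15.1 and 6.62 at 1 h, 9.85 and 5.54 at 2 h, 6.11 and 5.21 at 4 h, and 5.01 and 5.08 at 6 h, and all later libraries were below both 0 h libraries. DI replicates held 28.1 and 15.2 CPM at 0 h, 9.24 and 12.3 at 1 h, 3.86 and 16 at 2 h, 14.1 and 12.2 at 4 h, and 5.14 and 9.34 at 6 h. The fall in Ctrl was called at 4 h (log2 -1.97 ± 0.58, 3.92-fold, adjusted p = 0.0134) and 6 h (-2.13 ± 0.60, 4.38-fold, 0.00889). In DI it was -0.71 ± 0.55 at 4 h and -1.59 ± 0.57 at 6 h (adjusted p = 0.405 and 0.0504), neither called, and the response differences were not called either (1.26 ± 0.79 at 4 h, adjusted p = 0.649). No difference between DI and Ctrl was called, and at 4 h, where both DI libraries were above both Ctrl libraries, it was 1.22 ± 0.59 (0.211). Libraries had 14 to 283 reads of Scarb1. The fall in DI at 6 h was called by the DESeq2 Wald test (adjusted p = 0.0355), without a filter on low counts (0.0289), with a filter at 5 CPM (0.0490) and with scaling on abundant genes (0.0286). The fall in Ctrl at 2 h, not called by edgeR as run, was called by limma-voom (0.0191), in a model of the groups compared alone (0.00642), without a filter (0.0423) and with scaling on abundant genes (0.0420). The Ctrl call at 4 h was lost when any 1 of its 4 libraries was left out (adjusted p 0.0501 to 0.119), that at 6 h without Ctrl 6 h replicate 1 (0.0725) or replicate 2 (0.0717), and without DI 2 h replicate 2 the fall in DI at 2 h became called (-2.48, 0.0249).

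Scarb2 (ENSMUSG00000029426, chr5:92441314-92506833, minus strand) varied least of the 3 family members. Its level was 35.4 to 58.5 CPM in the 10 Ctrl libraries and 27.1 to 49.3 CPM in the 10 DI libraries, ranges that overlap. None of its 17 contrasts was called, and the average difference over the 5 times was -0.33 ± 0.15 (95% interval -0.63 to -0.03, adjusted p = 0.0963). That average was called without DI 0 h replicate 1 (-0.41, 0.0368) and without DI 6 h replicate 1 (-0.39, 0.0467).
Of 15 genes of the lysosome membrane and lumen, all tested, none was called between the arms at 0 h or 1 h, 1 was higher in DI at 2 h, 2 were higher and 2 lower at 4 h, and 3 were higher and 1 lower at 6 h. The shares of all genes called at the 5 times were 3.60%, 4.89%, 6.24%, 9.43% and 14.2%, and the counts up to 2 h are close to them. Npc1, which exports cholesterol from the lysosome, was higher in DI at 4 h (1.55 ± 0.31, adjusted p = 0.00137) and 6 h (1.49 ± 0.31, 0.00142). Psap, the precursor of the saposins, was higher at 6 h (1.25 ± 0.25, 0.00127).

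Msr1 (ENSMUSG00000025044, chr8:39581685-39642673, minus strand) was lower in DI at 4 h and 6 h. Ctrl replicates held 576 and 815 CPM at 0 h, 408 and 563 at 1 h, 858 and 584 at 2 h, 1404 and 959 at 4 h, and 955 and 1456 at 6 h. DI replicates held 405 and 478 CPM at 0 h, 327 and 373 at 1 h, 662 and 638 at 2 h, 609 and 457 at 4 h, and 606 and 384 at 6 h. The arms overlapped at 2 h and at no other time. The log2 difference was -1.15 ± 0.31 at 4 h (2.22-fold lower, adjusted p = 0.0171) and -1.28 ± 0.31 at 6 h (2.44-fold lower, 0.00529), against -0.65 ± 0.30 at 0 h, -0.47 ± 0.30 at 1 h and -0.15 ± 0.30 at 2 h, which were not called. Averaged over the 5 times Msr1 was 1.67-fold lower in DI (-0.74 ± 0.14, adjusted p = 1.47e-04). Within Ctrl, all 4 libraries at 4 h and 6 h were above both 0 h libraries. The differences of 0.76 ± 0.30 and 0.79 ± 0.30 missed the threshold (adjusted p = 0.0692 and 0.0550), and that at 6 h was called without Ctrl 6 h replicate 1 (1.07, 0.0394). By limma-voom and in a model of the groups compared alone the rise in Ctrl was called at 4 h (adjusted p = 0.0464 and 0.0228) and at 6 h (0.0407 and 0.0204). At 6 h it was also called by the DESeq2 Wald test (0.0347) and with DESeq2 size factors (0.049998). In DI they were 0.27 ± 0.30 and 0.17 ± 0.30. The response difference at 6 h was -0.63 ± 0.43 (95% interval -1.51 to 0.25), not called. The DI calls were lost at 4 h without Ctrl 4 h replicate 1 (-0.85, 0.225) or DI 4 h replicate 2 (-0.96, 0.181), and at 6 h without Ctrl 6 h replicate 2 (-0.95, 0.111) or DI 6 h replicate 2 (-0.99, 0.0976).

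Marco (ENSMUSG00000026390, chr1:120474538-120505024, minus strand) was near the lower end of what these libraries measure, with 10 to 127 reads a library. Its Ctrl libraries held 3.73 to 13.5 CPM and its DI libraries 2.27 to 26.1 CPM. The highest value was in DI 6 h replicate 1, and replicate 2 of that group held 10.5 CPM. None of its 17 contrasts between matched times, from 0 h or between responses was called, and DI 6 h against Ctrl 2 h, compared after the values were seen, was called (2.11 ± 0.62, adjusted p = 0.0187). The average of DI over Ctrl was 0.58 ± 0.27 (95% interval 0.02 to 1.14, adjusted p = 0.109), called without DI 2 h replicate 1 (0.72, 0.0331).
The other scavenger receptors differed between the arms in both directions. Of 17 listed, 10 were tested, and in DI 0 were higher and 0 lower at 0 h, 3 were lower at 1 h and 3 at 2 h, 1 was higher and 1 lower at 4 h, and 3 were higher and 2 lower at 6 h. The shares of all genes called at the 5 times were 3.60%, 4.89%, 6.24%, 9.43% and 14.2%, and the counts at 0 h and 4 h are close to them. The list medians were -0.18, -0.38, -0.09, -0.21 and 0.58, against -0.05, 0.00, -0.03, -0.06 and -0.03 over all genes. Olr1, the oxidised lipoprotein receptor LOX-1, was at 148 ± 12.0 CPM in Ctrl and 42.1 ± 5.03 in DI at 1 h (-1.82 ± 0.34, adjusted p = 0.00142). Cxcl16, a scavenger receptor that is also a chemokine, was lower in DI at 1 h (-1.28 ± 0.26, 0.00305) and 2 h (-0.91 ± 0.26, 0.0344). Stab1, a scavenger receptor of endothelium and alternatively activated macrophages, fell in Ctrl from 173 ± 13.7 to 23.5 ± 3.68 CPM by 6 h and was at 101 ± 3.57 CPM in DI at that time (DI against Ctrl 2.10 ± 0.30, 2.57e-05). Lrp1, an endocytic receptor for lipoproteins and protease complexes, was higher in DI at 6 h (1.16 ± 0.32, 0.0165).

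Mrc1 (ENSMUSG00000026712, chr2:14229392-14332057, plus strand) was lower in DI before the stimulus and again at 6 h, and rose within DI at the times between. Ctrl replicates held 299 and 224 CPM at 0 h, 275 and 335 at 1 h, 481 and 313 at 2 h, 214 and 213 at 4 h, and 305 and 179 at 6 h. DI replicates held 86.9 and 108 CPM at 0 h, 289 and 177 at 1 h, 260 and 221 at 2 h, 227 and 285 at 4 h, and 118 and 127 at 6 h. DI was below Ctrl without overlap at 0, 2 and 6 h and above it at 4 h. The log2 difference was -1.42 ± 0.31 at 0 h (2.68-fold lower, adjusted p = 0.00663) and -0.98 ± 0.31 at 6 h (1.97-fold lower, 0.0331), and was not called at 1 h (-0.39 ± 0.30), 2 h (-0.72 ± 0.30) or 4 h (0.26 ± 0.30). Within DI, Mrc1 was above its own 0 h level at 1 h (1.25 ± 0.31, adjusted p = 0.0175), 2 h (1.30 ± 0.31, 0.00532) and 4 h (1.39 ± 0.31, 0.00204), and at 6 h it was at 0.33 ± 0.31 (0.501). Within Ctrl none of the 4 differences was called. The DI response exceeded the Ctrl response at 4 h by 1.69 ± 0.43 (95% interval 0.79 to 2.58), which did not pass adjustment in edgeR (adjusted p = 0.0708). Over the alternatives that kept all libraries it was called with scaling on abundant genes (0.0402), without a filter on low counts (0.0140) and by the DESeq2 Wald test (0.00908).
The Mrc1 calls also depend on single libraries. At 0 h the call was lost without Ctrl 0 h replicate 1 (-1.20, 0.121) or DI 0 h replicate 1 (-1.28, 0.0860), and at 6 h without Ctrl 6 h replicate 1 (-0.55, 0.440), DI 6 h replicate 1 (-0.92, 0.133) or DI 6 h replicate 2 (-1.04, 0.104). Within DI it was lost at 1 h without DI 0 h replicate 1 (1.11, 0.178) or DI 1 h replicate 1 (0.86, 0.252) and at 2 h without DI 0 h replicate 1 (1.16, 0.0643). In a model of the groups compared alone, the calls of DI against Ctrl at 0 h (-1.38, 0.0988) and 6 h (-0.96, 0.0648) and within DI at 1 h (1.20, 0.147) were lost.
Among 17 genes of the mannose receptor family and of receptors for dying cells, 13 were tested. None was higher in DI at any time, and 3, 5, 2, 5 and 4 were lower at 0, 1, 2, 4 and 6 h, with list medians of -0.54, -1.17, -0.74, -0.83 and -0.78. Of all genes tested, 2.17%, 3.03%, 3.97%, 6.00% and 8.95% were called lower at these times. The medians over all genes were -0.05, 0.00, -0.03, -0.06 and -0.03. Pla2r1, a mannose receptor family member that binds secreted phospholipase A2, was lower in DI at all 5 times, at 21.1 ± 3.94 CPM in Ctrl and 1.91 ± 2.05 in DI at 0 h. Axl, a receptor tyrosine kinase for dying cells, was lower at 1, 4 and 6 h (-1.46 ± 0.33 at 6 h, adjusted p = 0.00352). Mertk, its relative, rose in both arms by 6 h, to 704 ± 43.1 CPM in Ctrl and 594 ± 76.0 in DI, and was not called between the arms at any time.

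**Figure D4:**
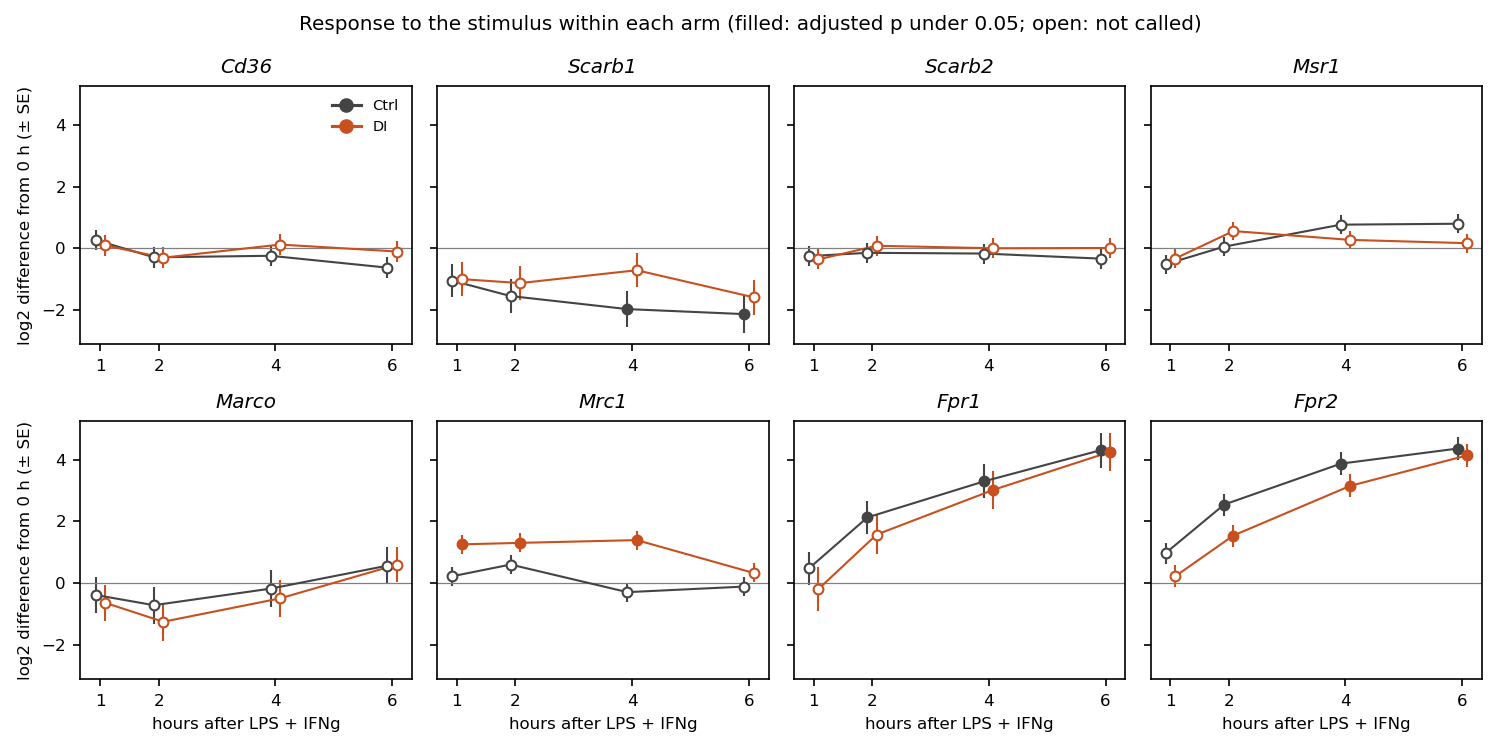
Log2 difference from 0 h of the same arm for the 8 genes at 1, 2, 4 and 6 h after LPS and IFNg, in Ctrl (grey) and DI (orange), with bars of 1 standard error; filled points were called at an adjusted p under 0.05. Fpr1 and Fpr2 reach 4.14 to 4.36 in both arms, Scarb1 falls to -2.13 in Ctrl, and Mrc1 is called in DI and not in Ctrl, while the difference between the arms' responses was not called for any of the 8 genes.

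Counted over the 8 genes, the stimulus gave 8 calls of 32 in Ctrl and 8 of 32 in DI. In Ctrl, 0, 2, 3 and 3 genes were called at 1, 2, 4 and 6 h, where 4.07%, 12.2%, 24.3% and 26.5% of all genes tested were called, and in DI 1, 2, 3 and 2 were called against 3.59%, 11.0%, 18.7% and 20.2%. The Ctrl calls were 6 rises of Fpr1 and Fpr2, where 3.65%, 9.13%, 14.7% and 15.2% of all genes were called higher at the 4 times, and 2 falls of Scarb1, where 0.422%, 3.09%, 9.58% and 11.3% were called lower. The DI calls were 5 rises of Fpr1 and Fpr2 and 3 of Mrc1, where 3.29%, 7.89%, 11.4% and 11.2% were called higher. With 8 genes, these shares differ from those of all genes by a few calls. The response differences gave 0 calls of 32 with edgeR, 2 of them at an unadjusted p under 0.05, both Mrc1, at 1 h and 4 h, where 0.253%, 0.356%, 0.760% and 1.55% of all genes were called. limma-voom also gave 0, and the DESeq2 Wald test gave 1. All contrasts within an arm share the 0 h libraries of that arm, and each response difference shares its libraries with the contrasts above, so their values are not independent. Averaged over the 5 times, a contrast added after the values were seen, 5 of the 8 genes were called, Cd36 higher and Msr1, Mrc1, Fpr1 and Fpr2 lower in DI, against 29.7% of all genes tested (12.0% higher and 17.7% lower).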

How the data were processed

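RNA of 20 macrophage libraries, 10 groups of 2, was sequenced from barcoded oligo-dT primed, strand-specific 3' libraries pooled by Actb qPCR, per the labels' protocols. The authors deposited raw counts per Ensembl gene. Per the submitters' processing notes, STAR and HTSeq were used on build mm10, and DESeq2 is named; no versions are given. Of 22165 genes, 21745 matched a GENCODE M21 symbol. No molecular identifiers are named, so reads need not be independent molecules.

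In R 4.3.3, edgeR 4.0.16 was run with filterByExpr by group (10663 genes), TMM scaling and 1 robust quasi-likelihood model of all 20 libraries with 1 coefficient per group. Adjusted p-values are Benjamini-Hochberg within each contrast over all genes tested. Standard errors are the difference divided by the root of the F statistic, and are unstable, with their intervals, where the difference is close to none. Levels of single genes are CPM with TMM factors, and sums of cell type markers are CPM of total counts without them. Levels are compared within a gene, since 3' counts carry no per-length scale. Contrasts were DI against Ctrl at 5 times, 4 stimulated times against 0 h in each arm, and the difference of these responses, 17 per gene. The steps were also run on simulated counts in which all groups shared 1 mean profile, apart from genes changed in DI at 6 h. That setting lacks the excess of zeros in DI libraries and the shift of TMM factors over time, so it does not cover them.

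The 8 genes and the lists were chosen with earlier results of these data known. Named genes are the 8 members, for each the 3 genes most like it over the 10 group means (prior count 2), and up to 4 called members per list with the smallest p. Alternatives were DESeq2 1.42.0 size factors, TMM factors taken from genes that average 32 CPM or more, no filter, a filter of 5 CPM in 2 libraries, limma-voom (limma 3.58.1), the DESeq2 Wald test, only the groups compared, a replicate block, leaving out each library, and leaving out replicate 2 of DI at 2, 4 and 6 h together. The average over 5 times and DI 6 h against Ctrl 2 h were chosen after the data were seen. Promoters come from RefSeq (GRCm38.p6), with entries for 6 of the 8 genes. Some listed genes are counted in their lists but not reported here by name.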

Additional observations from a re-analysis of the deposited data

How the results depend on the processing

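Under the alternatives run, no call was reversed. Calls of DI against Ctrl numbered 17, and 12 to 18 under the other settings and 14 to 18 with 1 library left out. Calls after the stimulus numbered 8 in Ctrl (8 to 11, and 6 to 9) and 8 in DI (7 to 11, and 6 to 10). Response differences gave 0 calls, 0 with any library left out, and 1, that of Mrc1 at 4 h, with TMM factors from genes that average 32 CPM or more, with no filter and with the DESeq2 Wald test; the cause was not tested.

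With the replicate number as a block the counts of calls were 17, 8, 8 and 0, as without it. Over 45 pairs of groups the differences between replicates 2 and 1 correlated at -0.143 to 0.113, and 2 pairs exceeded 0.1. Such low values do not exclude an animal, day or run shared by libraries of the same number. In DI, replicate 2 had fewer genes with 1 to 3 reads than replicate 1 at every time, 333 against 585 at 0 h and 478 against 674 at 6 h.

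Scaling on abundant genes moved the median of all genes by 0.11 to 0.15 for DI against Ctrl at 4 h and 6 h, by -0.20 to -0.34 in Ctrl from 2 h on, and by -0.13 to -0.24 within DI. Among all called genes, the share called higher then went from 36.4% to 47.4% and from 36.9% to 48.9% for DI against Ctrl at 4 h and 6 h. After the stimulus it went from 74.7% to 59.7%, 60.6% to 40.2% and 57.5% to 40.5% in Ctrl at 2, 4 and 6 h, and from 71.9% to 60.8%, 60.8% to 44.5% and 55.8% to 44.9% in DI. For the response differences at 6 h it went from 37.0% to 50%. Under that scaling the calls of Fpr1 (-1.40, adjusted p = 0.0654) and Mrc1 (-0.83, 0.0680) at 6 h were lost. Depth limits Marco, Scarb1 and the DI libraries of Fpr1 at 0 h and 1 h, which rest on few reads.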
